A study of Mus musculus with 20 samples.

Results

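The genes described here carry the symbols of initiation factors (starting with Eif and a digit) or elongation factors (starting with Eef and a digit) of protein synthesis. They were chosen by gene symbol alone from the authors' deposited tables of N6-methyladenosine (m6A) peaks in mouse thymocytes. Some of them encode kinases, methyltransferases or other partners of these factors and not the factors themselves, and all are grouped by symbol. The rule found 109 peaks of 25992 in 43 genes. Of these, 61 of 13450 peaks (31 genes) were in the table for CD4 and CD8 double-positive (DP) thymocytes, and 48 of 12542 peaks (32 genes) were in the table for invariant natural killer T (iNKT) cells. Both tables held a peak for 20 of the symbols, 11 symbols were in the DP table alone and 12 in the iNKT table alone. The shared symbols were 64.5% of the DP and 62.5% of the iNKT factor symbols, close to the 66.3% and 64.8% over all genes of the tables.

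The study isolated messenger RNA from sorted cells of C57BL/6 mice aged 6 to 8 weeks and sequenced it before (input) and after immunoprecipitation of m6A. The sorted DP cells carried CD4 and CD8 and did not bind the CD1d tetramer, and the iNKT cells bound it and carried TCR beta. Wild-type mice (WT) were compared with Mettl3fl/flCD4-cre mice, which carry floxed Mettl3, the gene of the catalytic subunit of the m6A writer, and CD4-cre, which acts in T cells from the double-positive stage on. The 20 libraries held 2 replicates of DP cells and 3 replicates of iNKT cells for each genotype and library type. The labels do not say whether WT mice carried Cre or a floxed allele, or whether mice were pooled. They name m6A-seq and a low-input protocol without assigning them to cell types, so cell type and protocol cannot be told apart.

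Initiation factors bring the ribosome, the initiator tRNA and the capped messenger together. In outline, eIF4 proteins bind the cap, eIF3 bridges to the small subunit, eIF2 delivers the initiator tRNA, eIF2B recycles eIF2 and eIF5B joins the subunits. Elongation factor eEF1A then delivers each aminoacyl-tRNA and eEF2 moves the ribosome along. Many messengers of the translation machinery start with a run of pyrimidines, the terminal oligopyrimidine tract, through which the mTOR pathway controls their own translation. The mark itself sits mainly in long internal exons, near stop codons and in 3' untranslated regions (UTRs), and also occurs in 5' UTRs.

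Each row of the authors' deposited tables is a peak, with a fold enrichment of immunoprecipitate over input, a differential log2 fold change for the genotypes and a false discovery rate (FDR) for that difference. The tables carry nothing per replicate, which leaves every value here without a spread of its own, and the FDRs are the authors' own. Negative values are read as less m6A in the Mettl3-deleted cells, which is likely but not stated. This reading rests on the deposited gene lists, which hold the same 26 (DP) and 17 (iNKT) factor symbols that have a negative peak at any FDR. It assumes that the lists name genes that lost m6A, which their labels do not say. A peak is called lower or higher at an FDR of 0.05 or less, and sizes of rises and falls are log2 fold changes throughout. Over all peaks 25.7% were called in the iNKT table (19.8% lower, 5.84% higher) and 1.23% in the DP table (0.743% lower, 0.483% higher). Neither table holds a peak named Mettl3, so the deletion was not checked. Of 7 DP markers Cd4, Cd8a, Cd8b1 and Rag1 had a peak in the DP table, and Cd8a, Cd8b1, Rag1 and Cd1d1 had one in the iNKT table as well. The iNKT markers Zbtb16, Tbx21, Il2rb, Klrb1c, Slamf6 and Icos had a peak in the iNKT table, and Il2rb and Slamf6 also in the DP table. The myeloid markers Itgam and Csf1r had a DP peak, but peaks give no expression level.

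The gene name of a peak often was not the gene under it. All 43 symbols were found in RefSeq's table for GRCm38.p6 (the mm10 build), and 35 had a strand there. By RefSeq's spans 10 of the 61 DP peaks and 13 of the 48 iNKT peaks lay outside the gene they were named after, or on its other strand. Peaks named Eif2d lay on the strand of Rassf5, those named Eif2s2 on the plus strand lay in Raly, and those named Eif4g3 at the 5' side of that gene lay in Ece1. Others lay in Ddx55 (named Eif2b1), Tut1 (named Eef1g), Spg11 and Eif3j1 (named Eif3j2), Ctdspl2 (named Eif3j1), Slc17a5 (named Eef1a1) and Gm4462 (named Eif4g1). In the other direction 15 DP and 20 iNKT peaks lay in a factor gene on its strand and carried another gene's name. Factor genes without a known strand were not searched for such peaks, so these counts and all counts by position can be too low. Counts are therefore given by name and again for the peaks inside the named gene.

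Among the peaks named after a factor, those in 5' UTRs carried the largest positive values in iNKT cells, so the first 30 bases from the RefSeq start are shown for the genes with a called 5' UTR peak and a start in the table. Bases run 5' to 3' on the gene's strand, from RefSeq on GRCm38.p6. Capitals mark TATATAA where it occurs and otherwise the longest run of C or T.
Eef1a1: ttcccgagggtgggggagaacggTATATAA
Eef2: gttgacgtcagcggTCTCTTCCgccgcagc
Eif1: gggcggcTATATAAgtgaatacaggcgccg
Eif1ad: gcttttgTTTCTCCagcggcccttccggtc
Eif5a: cggcggcggcgCTagaggcggcggcggcgg
These windows are chr9:78481695-78481724 (minus strand), chr10:81176631-81176660, chr11:100319949-100319978, chr19:5366813-5366842 and chr11:69921246-69921275 (minus strand). Eif5a has several starts in the table, and the one shown is the start whose 30 bases all lie in its peak. The peaks of Eef2, Eif1 and Eif5a cover the whole window, that of Eif1ad begins 30 bases after the start, and that of Eef1a1 begins 897 genomic bases after it. Eef2 and Eif1ad hold pyrimidine runs of 8 and 7 bases, while those of Eef1a1, Eif1 and Eif5a reach 5, 2 and 2, so a long run was not shared by these windows. Whether the RefSeq starts are the transcribed starts in these cells was not checked. The windows therefore cannot show which messengers begin with a pyrimidine run. A run of 6 or more is present in 26.5% of all 32851 starts in the table. TATATAA, searched on the transcript strand, was found in Eef1a1 and Eif1 and in 0.0852% of all starts. This motif was not among the planned comparisons, so its share over all starts is no test of it. The letters GGAC, searched on the same strand in the first 50 bases, were found in Eef1a1 but not at the other 4 starts shown, and in 18.9% of all starts.

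In iNKT cells 13 initiation factor peaks were called lower and 4 higher, and the 2 called elongation factor peaks were higher. Over all iNKT peaks 2488 were called lower and 733 higher, so a lean to lower calls was not particular to initiation factors. By name, 13 of the 48 factor peaks were called lower (27.1%, against 19.8% of all peaks) and 6 higher (12.5%, against 5.84%) in the authors' deposited table. By gene, 11 of the 32 symbols had a lower and 6 a higher peak, where 26.2% and 9.64% of all 6774 genes did. Inside the named gene these counts were 10 and 6 of 35 peaks. The lower peaks lay in the internal exons or 3' UTRs of Eif2ak3, Eif3a, Eif3c, Eif3d, Eif4e2, Eif4g1 and Eif5b, and in the 5' UTR of Eif1ad. The higher peaks lay in the 5' UTRs of Eef1a1, Eef2, Eif1, Eif4g2 and Eif5a and in an exon of Eif3g. The 3 other lower peaks, named Eif2b1 (-5.38, FDR 0.00049), Eif2d (-4.07, FDR 3.7e-08) and Eif4g3 (-2.69, FDR 0.03), lay in Ddx55, Rassf5 and Ece1, and the 10 not-called peaks outside the named gene ran from -2.86 to 0.874. The median log2 fold change was -0.485 for the factor peaks and -0.976 for all peaks of the authors' deposited table.

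**Figure D1:**
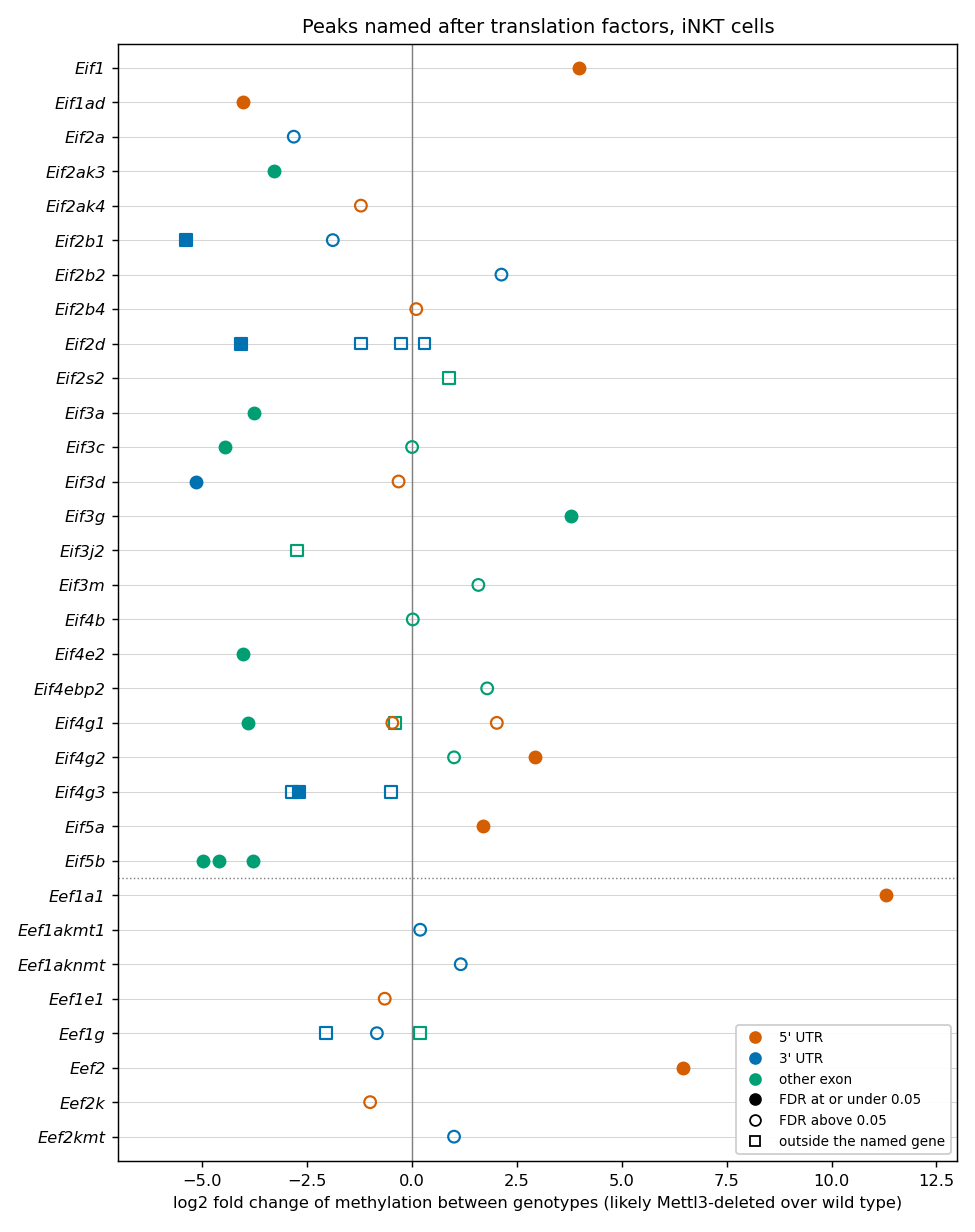
Differential methylation (log2 fold change, x axis) of each of the 48 iNKT peaks named after a translation factor, 1 gene per line, initiation factors above the dotted line. Colours give the position class, filled symbols an FDR of 0.05 or less and squares a peak outside the named gene. The filled orange points (5' UTR) lie to the right of 0, except Eif1ad at -4.03, and the filled blue (3' UTR) and green (other exon) points lie to the left, except Eif3g at 3.8.

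eIF5B, the GTPase that joins the ribosomal subunits, had 3 iNKT peaks and all were called lower. The authors' deposited table places them in exons 4, 8 and 9 of 24 on chromosome 1, at 38019236 to 38022276 (-4.98, FDR 1e-177), 38033079 to 38033229 (-4.60, FDR 3.7e-07) and 38034066 to 38037273 (-3.80, FDR 5e-34). Their fold enrichments over input were 16.8, 1.47 and 13.3, an order that the falls did not follow. A further peak of the gene, in its 3' UTR and named Rev1, had 1.09 (FDR 0.76).

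eIF3 is the large scaffold on the small subunit, and its subunits did not move one way. Eif3d, whose product can bind the cap itself, had the deepest value within a named factor gene, -5.15 (FDR 2.5e-94, 3' UTR, chromosome 15, 77959028 to 77959656) in the authors' deposited table, while its 5' UTR peak had -0.322 (FDR 0.76). Eif3c fell by 4.46 in the authors' deposited table (FDR 5e-27) in a peak annotated to exon 8 of 21, and a 107 nt peak of the gene, which also lies on the RefSeq gene Gm24596, had 0.0 (FDR 0.77). Eif3a, the largest subunit, fell by 3.78 (FDR 1e-276) over 569 nt in 5 blocks (chromosome 19, 60766867 to 60771026), a peak with a log10 peak p of -15500 in the authors' deposited table. A further Eif3a peak, at its 3' UTR and named Nanos1, fell by 1.57 (FDR 5e-17). Eif3g, in contrast, had a called rise of 3.80 (FDR 0.00025) over 60 nt, chromosome 9, 20898238 to 20898297. Eif3m was not called (1.58, FDR 0.76).

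Cap-side factors were mixed as well. The scaffold gene Eif4g1 had a called peak in exon 10 of 33 (-3.91, FDR 4e-21) and peaks upstream at 2.02 (FDR 0.27) and -0.471 (FDR 0.36), which the authors' deposited table classes as 5' UTR. The nearer of them to the called peak meets a DP peak that is classed as exon 10 of 33, and the same bases are thus classed both ways. Its 3' UTR peak, named Fam131a, fell by 2.88 (FDR 2.5e-11). Eif4e2, which encodes a cap-binding repressor related to eIF4E, fell by 4.04 in the authors' deposited table (FDR 0.00025, exon 2 of 6). Eif4g2 encodes DAP5, an eIF4G relative without the cap-binding module, and its 5' UTR peak rose by 2.93 (FDR 0.00013, chromosome 7, 111082880 to 111083030) in the authors' deposited table. Another Eif4g2 peak, which also lies on the RefSeq gene LOC115486847, had 1.0 (FDR 0.76). Eif4b, which stimulates the helicase eIF4A, stood at 0.0164 (FDR 0.76).

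The genes with Eif2 symbols cover eIF2, its exchange factor eIF2B and the kinases that switch eIF2 off. They also hold Eif2a, which encodes no eIF2 subunit. Among them 1 peak inside the named gene was called. It lay in exon 13 of 17 of Eif2ak3, the gene of the endoplasmic reticulum stress kinase PERK, at -3.29 (FDR 1.4e-06, fold enrichment 37.8, chromosome 6, 70892501 to 70892801) in the authors' deposited table. Eif2ak4, the gene of the amino acid sensing kinase GCN2, had -1.22 (FDR 0.76, 5' UTR) and Eif2a -2.82 (FDR 0.25). The eIF2B subunit genes Eif2b1, Eif2b2 and Eif2b4 had -1.89 (FDR 0.38), 2.13 (FDR 0.20) and 0.0995 (FDR 0.76) in the authors' deposited table. Eif2ak1, the gene of the heme-regulated kinase, had a 3' UTR peak named Ankrd61 at -3.10 (FDR 0.10). Eif2ak2, the gene of the double-stranded RNA sensor PKR, carried 3 peaks at its 3' UTR, all named Gm6548: the one at -4.00 was called (FDR 0.0036), and those at -2.40 (FDR 0.074) and -1.12 (FDR 0.76) were not.

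Eif1 and Eif1ad each had a called 5' UTR peak, the first higher and the second lower. Eif1, whose product keeps the scanning ribosome from starting at the wrong codon, was higher by 3.97 (FDR 1e-242) in the authors' deposited table, over 241 nt from 34 bases before its RefSeq start (chromosome 11, 100319915 to 100320155). Eif1ad, an eIF1A domain gene, fell by 4.03 in its 5' UTR (FDR 0.0079, chromosome 19, 5366843 to 5367021). Its 3' UTR peak, named Banf1, fell by 2.89 (FDR 1.4e-05) in the authors' deposited table. Eif5a, named as an initiation factor but known for its hypusine and its work in elongation, had a higher peak in its 5' UTR, at 1.68 (FDR 0.0017; chromosome 11, 69921060 to 69921345).

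Genes with symbols starting with Eef had 10 iNKT peaks by name and 8 inside the named gene, and 2 were called, both higher. Eef1a1, the main eEF1A gene of most tissues, had a log2 fold change of 11.3 (FDR 1e-125) over 60 nt, which ranked 2 from the top of the 12542 peaks in the authors' deposited table. Eef2 rose by 6.46 with a log10 FDR of -434 over 181 nt in 2 blocks, chromosome 10, 81176631 to 81177746, from the first base of its RefSeq start. Their fold enrichments over input were low, 3.92 and 1.53, against a median of 8.32 over all iNKT peaks of the authors' deposited table. Eef1g, a subunit of the exchange factor of eEF1A (-0.839), Eef1e1, a scaffold of the aminoacyl-tRNA synthetase complex (-0.652), and Eef2k, the kinase that inhibits eEF2 (-1.0), were not called in the named gene (FDR 0.76 each). The methyltransferase genes Eef1akmt1, Eef1aknmt and Eef2kmt, whose products modify eEF1A and eEF2, stood at 0.193, 1.16 and 1.0 in the authors' deposited table, also at an FDR of 0.76.

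Initiation and elongation factors, grouped by symbol, can be set side by side on these counts. The elongation group also holds Eef2k, Eef1e1 and the methyltransferase genes, which are not elongation factors themselves. Likewise the initiation group holds the eIF2 kinase genes and Eif4ebp2. Of 38 initiation peaks 13 were lower and 4 higher, with a median of -0.859 in the authors' deposited table, and of 10 elongation peaks 0 were lower and 2 higher, with a median of 0.192, where 19.8% of all iNKT peaks were lower and 5.84% higher. Among peaks with a fold enrichment of at least 2 the elongation median was -0.23, below 0. Inside the named gene the counts were 10 and 4 of 27 (median -0.471) against 0 and 2 of 8 (median 0.597). At an unadjusted p of 0.05 the elongation counts stayed at 0 and 2, and a Benjamini-Hochberg adjustment recomputed from the authors' p-values gave the same. Peaks are not replicates and share genes, so no test of this difference was made. The absence of lower elongation peaks held for names only, as Eef2 shows next.

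Along Eef2 the called peaks changed sign from the 5' to the 3' side. Besides the 5' peak at 6.46, a peak in exon 2 of 14 named after the intronic small nucleolar RNA gene Snord37 stood at 3.71 and was called (log10 FDR -320, fold enrichment 1.69). At the 3' UTR a peak named Dapk3 (chromosome 10, 81181989 to 81182378) fell by 0.938 (FDR 6.3e-44), with a fold enrichment of 9.53 and a log10 peak p of -11500. Eif4ebp2, the gene of an eIF4E-binding inhibitor that mTOR phosphorylates, also had both signs. The 4 peaks at its 3' UTR, named Nodal, had 10.3 (FDR 4e-30), 3.08 (FDR 1e-15), -1.46 (FDR 0.0066) and -0.391 (FDR 0.61) in the authors' deposited table. Its only peak under its own name stood at 1.79 (FDR 0.64). Counted by position, 55 iNKT peaks lay in 34 factor genes, 18 of them lower in 13 genes and 9 higher in 7 genes, and Eef2 and Eif4ebp2 were the 2 genes with both. Over all iNKT peaks the shares were 19.8% and 5.84%, and over all iNKT genes 26.2% and 9.64%. Elongation genes then had 1 lower and 3 higher peaks and initiation genes 17 and 6. Other lower peaks under another gene's name lay in Eif4enif1, which encodes the eIF4E transporter (named Sfi1, -2.85, FDR 0.010), and in Eif4g3 (named 1700095J12Rik, -1.26, FDR 0.00074).

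**Figure D2:**
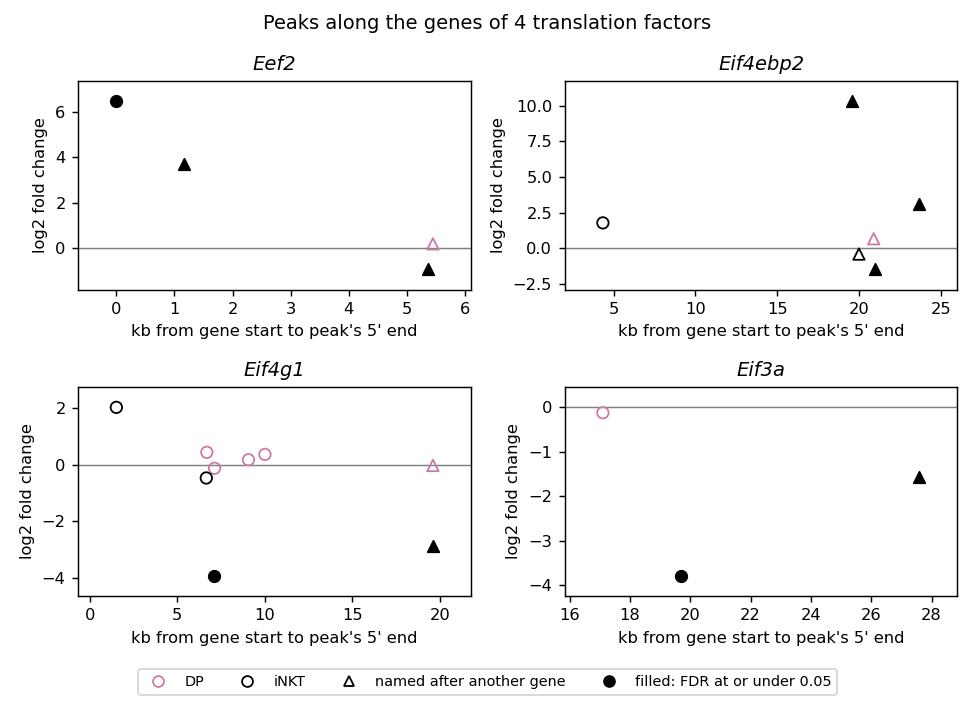
Log2 fold change (y axis) of the peaks that lie in 4 factor genes, by distance in kb from the gene's RefSeq start to the 5' end of the peak (x axis). Black points are iNKT and pink points DP peaks, filled points have an FDR of 0.05 or less, and triangles carry another gene's name. Eef2 goes from 6.46 at its start to -0.938 at its 3' side in iNKT cells, while its DP peak stands at 0.185.

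In iNKT cells the called factor peaks in 5' UTRs were mostly higher and those elsewhere mostly lower. Of 13 peaks in 5' UTRs, 5 were higher and 1 lower in the authors' deposited table, against 8.25% higher and 13.8% lower over all 1843 5' UTR peaks. Of 35 peaks elsewhere 12 were lower and 1 higher, against 20.9% and 5.43% over all 10699 such peaks. Within that group the 17 peaks in 3' UTRs had 4 lower and 0 higher (all such peaks: 22.2% and 5.18%), and the 18 in other exons 8 lower and 1 higher (19.4% and 5.71%). Restricted to peaks inside the named gene, all 13 of the 5' UTR peaks stayed and those elsewhere became 9 lower and 1 higher of 22. Both roles took part: the 9 initiation peaks in 5' UTRs included 3 higher and 1 lower, and the 4 elongation peaks included 2 higher and 0 lower. The medians of the authors' deposited table were 0.0995 in 5' UTRs and -1.22 elsewhere for the factors, against -0.637 and -1.0 over all peaks. The first was below 0, at -0.111, among peaks with a fold enrichment of at least 2, and the second was -1.97 there and -2.05 among peaks over 100 nt. With 13 and 35 peaks from a few genes, and no test, these are counts of this set.

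**Figure D3:**
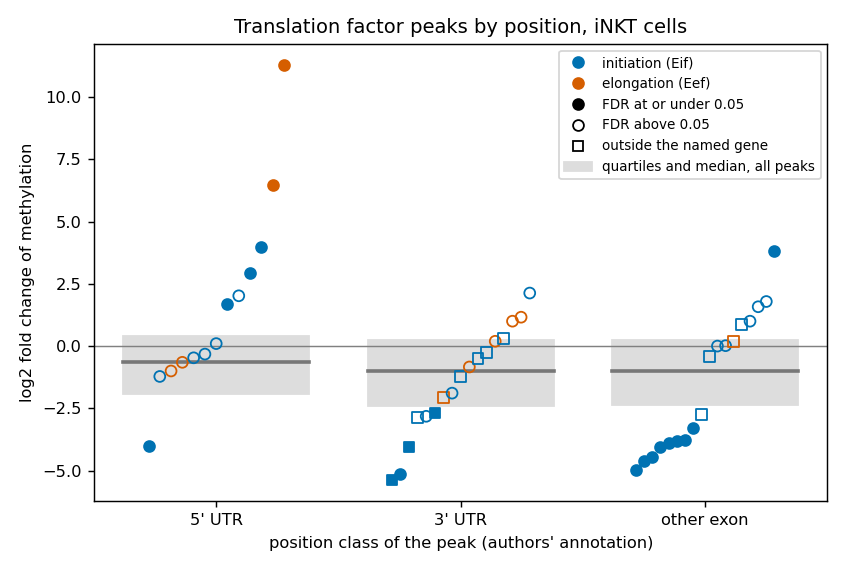
Log2 fold change (y axis) of the 48 iNKT factor peaks by position class (x axis), blue for initiation and orange for elongation, filled at an FDR of 0.05 or less, squares outside the named gene. Grey boxes show the quartiles and the grey line the median of all iNKT peaks of that class. In the 5' UTR class 5 filled points lie above the box and 1 below it.

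Peak strength and length moved with the calls, and their part in the result was not tested. In the authors' deposited table the lower factor peaks had a median fold enrichment of 8.62, a median log10 peak p of -323 and a median length of 240 nt. The 6 higher peaks had 4.63, -36 and 166 nt, and the 29 peaks not called had 6.71, -12.3 and 150 nt. The same quantities over all iNKT peaks were 10.9, -328 and 271 nt for lower, 5.04, -15.6 and 179 nt for higher, and 8.12, -11.5 and 151 nt for peaks not called. The higher peaks of Eef1a1 and Eif3g were 60 nt long.

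In DP cells, where 1.44% of all 6618 genes had a lower and 0.876% a higher peak, no factor gene had a called peak within its own span. The 1 called peak of the 61 by name (1.64%, against 1.23% of all DP peaks) was named Eif2s2, at -0.400 (FDR 0.00027, fold enrichment 1.28) in the authors' deposited table, and lay on the plus strand in Raly, chromosome 2, 154863628 to 154866902. Inside the named gene 0 of 51 peaks were called. At an unadjusted p of 0.05 the in-gene counts were 6 lower and 0 higher (11.8%, against 12.7% of all DP peaks), and the recomputed Benjamini-Hochberg adjustment called 0. Those 6 peaks lay in Eef2kmt (-3.46, FDR 0.16), Eif4g3 (-0.941, FDR 0.27), Eif2b5 (-0.456, FDR 0.27), Eif2s2 (-0.439, FDR 0.32), Eif4b (-0.178, FDR 0.19) and Eif3a (-0.121, FDR 0.21) in the authors' deposited table. The factor median was -0.121 and that of all DP peaks 0.0, with a negative value listed for 67.2% of factor peaks and 49.7% of all DP peaks.

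**Figure D4:**
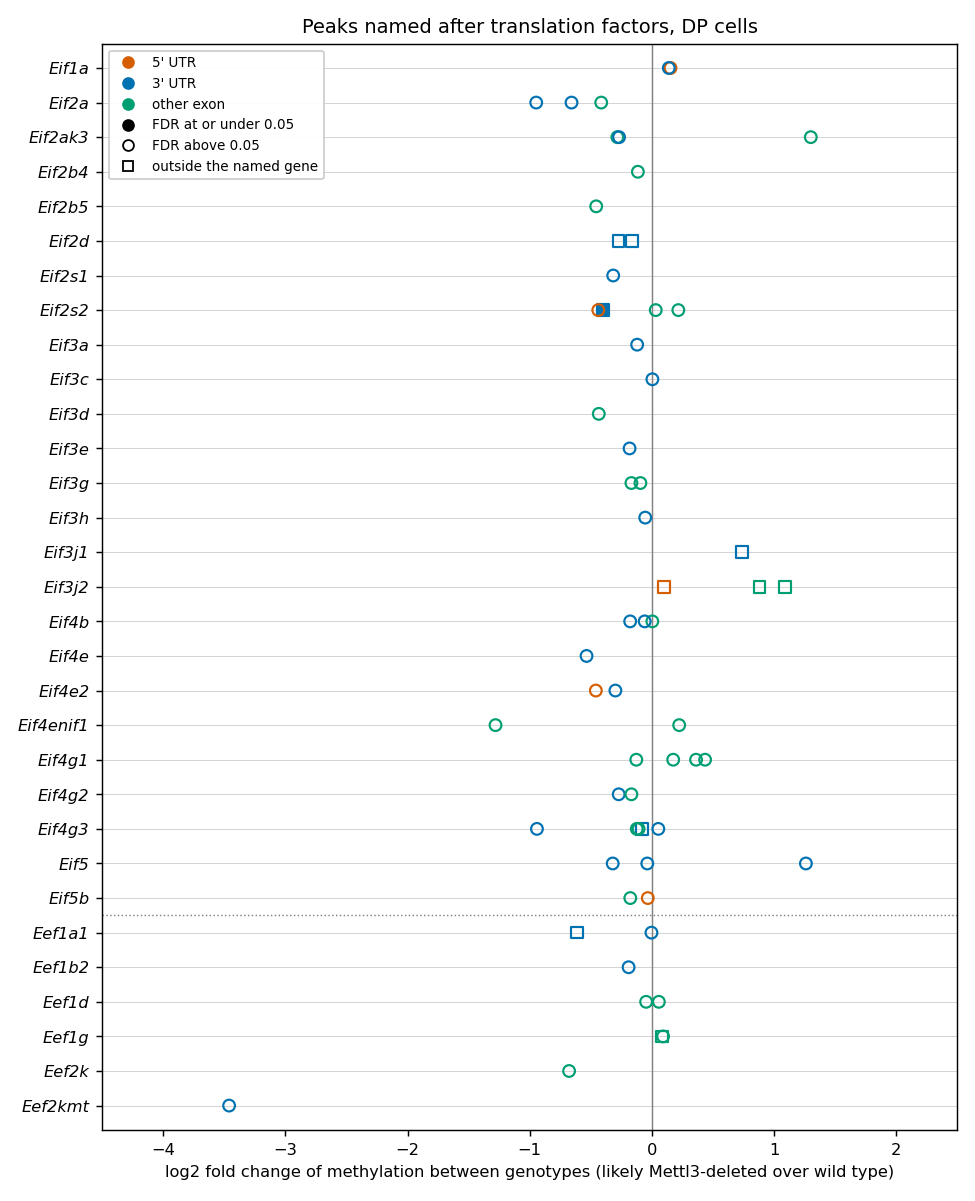
Differential methylation (log2 fold change, x axis) of each of the 61 DP peaks named after a translation factor, 1 gene per line, with the symbols as in the plot of the iNKT peaks. The single filled symbol, a square on the Eif2s2 line at -0.400, lies in Raly, and most values stand within 1 of 0.

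Most DP values lay within 1 of 0 on the log2 scale. The 2 DP peaks with symbols starting with Eef2 were those of the methyltransferase gene Eef2kmt (-3.46) and the kinase gene Eef2k (-0.678). Neither was a peak of Eef2 itself. Within the named gene the genes with Eif2 symbols had 12 peaks between -0.947 (Eif2a) and 1.3 (median -0.300). In the same count eIF3 genes had 7 peaks between -0.435 and 0.00372 (median -0.121), and eIF4 genes 18 peaks between -1.28 and 0.435 (median -0.126) in the authors' deposited table. The 2 peaks of Eif1a stood at 0.152 and 0.138, and the 5 of Eif5 and Eif5b between -0.321 and 1.26 (median -0.0381). The 9 not-called peaks outside the named gene ran from -0.613 to 1.09. The widest values belonged to weakly supported peaks, such as Eef2kmt at -3.46, whose log10 peak p was -4.80, and Eif2ak3 at 1.3 (FDR 0.65), whose log10 peak p was -4.86. That Eif2ak3 peak also lies on the RefSeq gene Gm23346. The strongest DP peak of the set, 2514 nt in 12 blocks of Eif3a with a fold enrichment of 10.3, stood at -0.121 in the authors' deposited table. Eif5b had 2 strong peaks of 1885 and 479 nt at -0.0339 (FDR 0.65) and -0.177 (FDR 0.63). Elongation peaks inside the named gene, 7 in all, ran from -3.46 to 0.0909 with a median of -0.0475, and the Eef1a1 3' UTR peak stood at -0.00381. The 5 DP peaks classed as 5' UTR, of Eif1a, Eif2s2, Eif3j2, Eif4e2 and Eif5b, ran from -0.459 to 0.152 in the authors' deposited table, and none was called (all such peaks: 1.15% lower, 0.531% higher). Of the 56 elsewhere the called Eif2s2 peak was the only one (all such peaks: 0.706% lower, 0.479% higher). The 5' UTR class is loose here. Its Eif5b peak, 1885 nt in 8 blocks, also covers bases of iNKT peaks classed as exons 4 and 8 of 24, and its peak named Eif3j2 lies in Eif3j1.

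Inside factor genes, 22 pairs of a DP and an iNKT peak in 15 genes shared at least 1 exonic base on the same strand. Of these, 16 were called lower and 1 higher in iNKT cells (72.7% and 4.55%), against 38.8% and 2.68% of all 5755 overlapping pairs of the tables. In DP cells 0 of the 22 were called, against 2.09% of all pairs. The iNKT value was the one further from 0 in all 22, as in 83.0% of all pairs. In 12 of the pairs 1 or both peaks carried the factor's name. They were made of 10 DP and 12 iNKT peaks in 8 genes, because a long DP peak can meet several iNKT peaks. Of the 12, 8 were called lower and 1 higher in iNKT cells. Their DP values ran from -0.947 to 0.435 (median -0.108) and the iNKT values from -4.98 to 3.80 (median -3.54) in the authors' deposited table. For Eif3c, for example, they were 0.00372 in DP and -4.46 in iNKT cells with fold enrichments of 3.45 and 3.49, and for Eif2ak3 -0.283 and -3.29 with 3.78 and 37.8. Eif3g had the same 60 nt in both tables, at -0.0943 in DP (FDR 0.65) and 3.80 in iNKT cells. Eif4b stood at 0.00323 and 0.0164, neither called. Fold enrichment was higher in the iNKT table for 8 of the 12 pairs. Of the 6 pairs outside the named genes, those in Ddx55 (-0.0725 in DP and -5.38 in iNKT cells) and Rassf5 (-0.273 and -4.07) were called in iNKT cells, and those in Spg11 (0.879 and -2.74), Ece1 (-0.0786 and -2.86) and Tut1 (0.082 against 0.19 and -2.05) in neither. The 10 other pairs inside factor genes carried other genes' names in both tables, and 8 of them were called lower in iNKT cells. Among them the 3' UTR of Eef2 gave 0.185 in DP (FDR 0.35) and -0.938 in iNKT cells, that of Eif4g1 -0.028 (FDR 0.65) and -2.88, and that of Eif4ebp2 0.682 (FDR 0.14) and -1.46. The called iNKT peak in Eif4g3 (-1.26) met separate DP peaks at 0.197 and -0.11. It therefore counts in more than 1 of these 10 pairs and of the 22. The difference between the cell types was not tested, because the tables hold no replicates and protocol and cell type cannot be told apart.

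**Figure D5:**
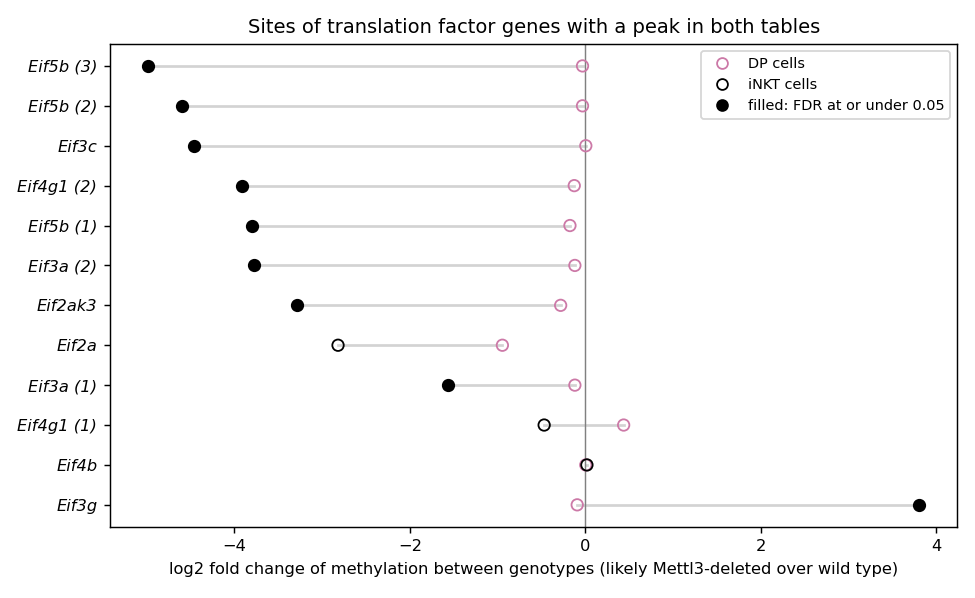
Differential methylation (log2 fold change, x axis) of the 12 overlapping pairs inside factor genes in which 1 or both peaks carry the factor's name, DP in pink and iNKT in black, filled at an FDR of 0.05 or less, joined by a line, with the pairs of a gene numbered from its highest iNKT value down. The DP points stay between -0.947 and 0.435, while 8 filled iNKT points lie below 0 and Eif3g lies at 3.80.

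Other genes of the translation pathway, 45 in a list of partners, regulators and mitochondrial counterparts, were counted the same way. In iNKT cells 23 of them had 50 peaks, 13 lower and 8 higher (26.0% and 16.0%, against 19.8% and 5.84% of all iNKT peaks). Inside the named gene there were 8 lower peaks in 3 genes and 6 higher peaks in 5 genes. Larp1 encodes a protein that binds the terminal oligopyrimidine tract and the cap, and the most enriched of its called peaks, in the 3' UTR, fell by 7.22 (FDR 4e-49, fold enrichment 420, 540 nt, chromosome 11, 58059578 to 58060117) in the authors' deposited table and another fell by 3.39 (FDR 4e-20). Abcf1, an eIF2 partner, fell by 4.71 in exons (FDR 1e-71), by 5.84 in the 5' UTR (FDR 4e-35) and by 4.13 in the 3' UTR (FDR 1.3e-09). Pabpc1, the cytoplasmic poly(A) binding protein gene, rose by 2.71 in its 5' UTR (FDR 1e-220), and Gcn1, which activates GCN2, rose by 6.92 over 61 nt (FDR 2e-11) in the authors' deposited table. Mknk2, the gene of a kinase of eIF4E, rose by 5.08 at a 3' UTR peak (FDR 1.6e-73) and had a lower peak at -4.17 (FDR 0.00011), named here after its value was seen. Rps6kb2, the gene of an S6 kinase, rose by 3.42 (FDR 2.5e-09) within its own span. Called peaks named Rps6kb2 (-3.11), Gtpbp1 (4.01 and -2.97) and Mtif3 (5.28, -5.12 and -4.95) lay in Ptprcap, Sun2 and Lnx2, with the lower peaks of the last 2 named here after their values were seen. In DP cells 31 of the genes had 59 peaks, 2 lower and 0 higher (3.39% called, against 1.23% of all DP peaks): the 5' UTR peaks of Pdcd4, an inhibitor of eIF4A (-0.304, FDR 0.034), and of Paip2, an inhibitor of the poly(A) binding protein (-0.534, FDR 0.042), in the authors' deposited table.

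For some factor genes no peak was found. Of 70 RefSeq protein-coding genes that match the symbol rule, 23 had no peak found by name or position in either table. Peaks under another gene's name were sought only in genes with a known strand, so some of these genes may hold such a peak. The share without a peak over all RefSeq protein-coding genes was not counted, so this number describes no trait of the factors. They included the helicase genes Eif4a1, Eif4a2 and Eif4a3, the anti-association factor gene Eif6, and the eIF3 subunit genes Eif3b, Eif3f, Eif3i, Eif3k and Eif3l. Transcript levels were not analysed here, so a missing peak cannot be told apart from low coverage.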

How the data were processed

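The series holds libraries of input and m6A-immunoprecipitated RNA. The submitters' processing notes list the mm10 build and HOMER 4.9.1, STAR 2.6.0a, FastQC 0.11.5, RSEM 1.3.0 and Trim Galore 0.6.5, with no order or role. The deposited peak tables carry exomePeak in their names, and its version and whether replicates were pooled are not stated in what was used here. Per the file headers, the deposited tables give a p-value per peak, a fold enrichment as a linear ratio, a log2 fold change, and log10 p and FDR values treated as scores. Depth per library is unknown, and the tables hold no counts, so no count model was fitted.

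Rows with identical coordinates, strand and blocks were kept 1 time (5 DP and 24 iNKT rows removed, 0 of factors). Peaks lay in a gene where an exonic block met its RefSeq span on its strand, where known. Peaks under another gene's name were sought only in factor genes with a known strand. Exon models were not used here. Named are the called, 5' UTR and shared peaks and family extremes. Members, lists and rules were chosen with earlier results of these data known. Counting, overlap and Benjamini-Hochberg code was tested on simulated data. The code ran on matplotlib 3.10.9, pandas 2.3.3, numpy 2.4.6 and SciPy 1.17.1 under Python 3.11.15. Alternatives covered naming, repeated rows, FDR thresholds, enrichment, peak length and overlap. Part of the check of cell type markers is not reported here.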

Additional observations from a re-analysis of the deposited data

How the results depend on the processing

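Of 250 recomputed values, 231 stayed within 1.5 times the count given above or within the binomial interval of the median, and 19 moved. That interval treats peaks as independent, though peaks share genes. For DP cells the 1 lower factor peak, an initiation peak outside 5' UTRs, became 0 with peaks in the named gene, by position, with a fold enrichment of at least 2, or with at least a 2-fold change, and the 5' UTR median became -0.236 with peaks in the named gene. For iNKT cells the higher elongation count became 1 with a fold enrichment of at least 2 (without Eef2) and 1 with an exonic length over 100 nt (without Eef1a1), and that length left 0 higher peaks outside 5' UTRs. Some medians changed while counted among the 231, because they stayed within the interval. A fold enrichment of at least 2 turned the sign of the iNKT medians of elongation peaks (0.192 to -0.23) and 5' UTR peaks (0.0995 to -0.111). The iNKT median outside 5' UTRs was -1.97 with that enrichment and -2.05 over 100 nt. By position, an alternative added after seeing the data, elongation had 1 lower peak and peaks outside 5' UTRs had 4 higher. At an FDR of 0.01 the lower DP count of the other translation genes became 0. Eif5a counted with elongation, also added later, gave 3 higher elongation and 3 higher initiation peaks. Peaks in the named gene were found from gene spans, since exon models were not used here. No paired analysis was possible because the tables hold no values per replicate, and for the same reason no replicate could be left out. Depth is unknown and sets no limit that could be given.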
